A study of Homo sapiens with 6 samples.

Results

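Siglecs are receptors that read sialic acid on the glycans of cell surfaces, and the genes of sialic acid metabolism make, transfer and remove that sugar. In 143B cells, a human osteosarcoma line, 44 genes of this kind were followed among the 58825 genes of the deposited table. They were picked out by gene name, whether or not they had counts, from a list drawn up with earlier results of these data known. The list held 13 Siglecs, 2 adaptors, 19 sialyltransferases, 4 sialidases and 6 genes of sialic acid synthesis, transport and de-acetylation. All 44 were found. Of the 44 members 11 had no count in any of the 6 libraries, and 8 of those were Siglecs. The 4 synthesis enzymes were the most abundant members per length, while the sialidase genes NEU2 and NEU4 were among those with no count. None of the 28 members with enough counts for a test passed the main one, edgeR, between the SIGLEC15 siRNA and the control siRNA. Of all tested genes 4.65% passed it, so none among so few members is close to that share. A second test, DESeq2, called 2 members higher and 1 lower, against 15.4% of all tested genes.

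Sialic acid is made in the cytosol from UDP-GlcNAc, activated to CMP-sialic acid in the nucleus, carried into the Golgi and attached there to the ends of glycans by sialyltransferases, which differ in the acceptor and the linkage they make. Sialidases take it off again. Siglecs are known mainly from leukocytes, where many signal through inhibitory motifs, while a few, SIGLEC15 among them, pair with the activating adaptor DAP12, the product of TYROBP. SIGLEC15 is known from osteoclasts and from tumour-associated macrophages and some tumour cells.

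Both groups were 143B cells grown in medium with serum and penicillin/streptomycin and transfected for 36 h with 80 nmol/L siRNA by HiPerFect reagent. The 3 control libraries carry the genotype label negative control, and the 3 others carry Siglec-15 knockdown. Cells that received no siRNA are not among the samples, and the sequence and number of SIGLEC15 siRNAs are not named in the labels. Whether each library had a culture of its own is not stated in the labels, so the p-values speak only of library-to-library spread, which may be technical.

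Library totals lay between 57966691 and 67655254 counts. Over all 18910 genes tested, 879 were called (4.65%; edgeR quasi-likelihood test, Benjamini-Hochberg adjusted p under 0.05), 419 higher (2.22%) and 460 lower (2.43%). The labelled cell type was checked on listed markers. VIM and SPARC were high, with control means of 481.8 and 62.6 FPKM (counts scaled by transcript length and library size), but COL1A2 and ALPL, markers of bone-forming cells, were near 0 at 0.00327 and 0.0675 FPKM, and the epithelial keratin KRT18 stood at 197.5 FPKM. KRT18 made up most of the summed control level of the 4 epithelial markers, 228.4 FPKM, and 1 of the 4 had no count. Of the 6 osteoblast and mesenchymal markers 5 were tested, and 2 of them, SPARC and COL1A1, rose with the SIGLEC15 siRNA, by 1.75-fold and 1.62-fold (edgeR adjusted p = 0.00137 and 0.0134). COL1A1 lost its call in 5 of 13 alternative settings, namely the replicate block and the fits without control replicates 1, 2 or 3 or SIGLEC15 siRNA replicate 2. RUNX2, VIM and ALPL were not called, with folds of 4.01, 0.907 and 0.469 (edgeR adjusted p = 0.113, 0.247 and 0.762), and the groups of RUNX2 and VIM did not overlap. The 6 markers summed to 545.9 FPKM in the control group, nearly all of it from VIM and SPARC. COL1A1 and RUNX2 were thus also low, and their folds rest on low levels. Of the leukocyte markers reported, PTPRC, LYZ and CD3E had 0 counts, CD14, CSF1R and ITGAM had at most 68 counts over the 6 libraries, and only CD68, a lysosomal protein found in many cell types, was substantial, at 19.5 and 15.1 FPKM in the 2 groups. Of 6 osteoclast markers CALCR had no count and none was above 0.547 FPKM in either group.

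The receptors come first. All 9 Siglecs of the CD33-related family failed the filter on counts, and 6 of them, SIGLEC5, SIGLEC6, SIGLEC7, SIGLEC8, SIGLEC11 and SIGLEC14, had no count anywhere. SIGLEC1, the macrophage sialoadhesin, and MAG, a myelin protein, also had none. With totals of this size 0 counts allow a level of up to 0.0447 to 0.0509 CPM (the count as a rate of the scaled library total; the limit is 3 counts in a library), for counting error only. The other 3 CD33-related genes had stray counts. SIGLEC10 had 18 in control replicate 1, 8 each in SIGLEC15 siRNA replicates 1 and 2, and 0 in the other 3 libraries. CD33 had 11 counts in control replicate 2 alone, and SIGLEC9 had 4 in control replicate 1 and 3 in SIGLEC15 siRNA replicate 1. SIGLEC10 overlaps a clone-named gene on the opposite strand that had 25 counts over the 6 libraries. No source used here says whether counting used strand, so reads of such partners cannot be told apart.

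Only CD22 and SIGLEC15 had counts in all 6 libraries. CD22, an inhibitory receptor of B cells, stood at 0.5, 0.846 and 0.964 CPM in the control libraries and at 0.742, 0.34 and 0.626 CPM in the SIGLEC15 siRNA libraries. The groups overlapped, and the log2 fold change was -0.43 (SE 0.419, edgeR adjusted p = 0.65). It was -0.17 without SIGLEC15 siRNA replicate 2 and -0.24 without control replicate 3, and it was -0.67 both without SIGLEC15 siRNA replicate 1 and without control replicate 1. Per length it was the highest Siglec, with a mean of 0.0857 FPKM over all libraries against 0.0421 FPKM for SIGLEC15, and even so only 6.12% of the tested genes had a lower mean. The counts of SIGLEC15, the intended target, were 12, 10 and 22 in the control group and 12, 8 and 6 in the SIGLEC15 siRNA group. Control replicate 3 was the highest library, and the other 2 control libraries lay within or at the edge of the range of the treated ones. The fitted fold was 0.566, with a 95% interval of 0.211 to 1.52 (edgeR adjusted p = 0.529). The ratio of the summed counts was 0.561 (0.331 to 0.931, counting error alone), a range that does not include 1. The fitted interval, which also holds the spread between libraries, is wider and includes 1. Without control replicate 3 the log2 fold change moved from -0.82 to -0.42 (edgeR adjusted p = 0.84).

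The adaptors were as silent as the receptors. TYROBP, whose product carries the activating signal of SIGLEC15, had 0 counts in every library, which allows up to the same 3 counts per library. HCST, which encodes the related adaptor DAP10, had 12 counts in SIGLEC15 siRNA replicate 2 and 0 elsewhere. SYK, the kinase that acts behind DAP12, also had no count. The summed level of the 13 Siglecs was 0.193, 0.169 and 0.209 FPKM in the control libraries and 0.174, 0.101 and 0.101 FPKM in the SIGLEC15 siRNA libraries. That sum rests on few counts.

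The sequence ahead of the starts was then compared between members of different levels, from untested ones to those of at least 1 FPKM, as a description without a test. RefSeq windows on GRCh38.p14 were matched by symbol for 36 of the 44 members, and the pair CG, the target of DNA methylation, was counted in the 250 bases before each start, taking the richest window where a gene has several. CG reads the same on both strands. The 4 windows below are examples, with each CG in capitals, 5′ to 3′ on the gene's strand: NANS (chr9:98056482-98056731, plus strand) and CMAS (chr12:22045968-22046217, plus strand) encode enzymes of sialic acid synthesis with 30 and 16 such pairs, and SIGLEC15 (chr18:45825425-45825674, plus strand) and TYROBP (chr19:35908296-35908545, minus strand) hold 6 and 5. TYROBP was untested, while SIGLEC15 was tested but averaged under 1 FPKM. The SIGLEC15 window runs past the start of the gene in the deposited table, 45825512, so part of it lies inside the counted span.
NANS: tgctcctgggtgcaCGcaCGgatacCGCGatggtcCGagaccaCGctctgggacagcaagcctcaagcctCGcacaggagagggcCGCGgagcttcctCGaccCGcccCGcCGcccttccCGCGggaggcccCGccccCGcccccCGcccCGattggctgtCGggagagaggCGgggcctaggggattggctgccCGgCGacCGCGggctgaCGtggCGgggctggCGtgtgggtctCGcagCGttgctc
CMAS: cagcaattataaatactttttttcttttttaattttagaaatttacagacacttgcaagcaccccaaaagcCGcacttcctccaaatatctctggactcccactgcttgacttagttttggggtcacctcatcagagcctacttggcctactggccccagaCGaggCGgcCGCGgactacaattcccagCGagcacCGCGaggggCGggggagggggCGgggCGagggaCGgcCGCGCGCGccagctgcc
SIGLEC15: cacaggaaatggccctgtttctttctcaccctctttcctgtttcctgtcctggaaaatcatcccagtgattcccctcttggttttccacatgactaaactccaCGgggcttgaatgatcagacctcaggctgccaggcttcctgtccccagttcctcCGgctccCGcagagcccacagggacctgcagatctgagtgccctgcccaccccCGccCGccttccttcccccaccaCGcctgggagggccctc
TYROBP: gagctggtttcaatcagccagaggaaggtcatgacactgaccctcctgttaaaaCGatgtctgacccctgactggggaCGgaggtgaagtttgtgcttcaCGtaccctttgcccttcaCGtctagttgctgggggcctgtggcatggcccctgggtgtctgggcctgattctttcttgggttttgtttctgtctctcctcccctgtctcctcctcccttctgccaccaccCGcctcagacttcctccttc

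The 12 matched members that averaged at least 1 FPKM held between 16 and 42 CG pairs, with a median of 24. The 14 matched members without enough counts for a test held between 2 and 16, with a median of 5.5. Over all 35116 RefSeq windows the median was 11, and 93.9% held at least 1 CG. All 12 of the first kind lay above that median, against 2 of the 14 untested ones, SIGLEC6 with 12 and the sialidase gene NEU4 with 16, and against 51.5% of the 27305 genes in the RefSeq table. The 10 matched members that were tested but averaged under 1 FPKM held 6 to 38, with a median of 28.5. That is no lower than the median of the 12 members above 1 FPKM. Of these 10, 7 lay above the median of all windows, and the 3 that did not were SIGLEC15, CD22 and ST6GALNAC5. Of the 13 Siglecs 11 lie on chromosome 19, SIGLEC1 on chromosome 20 and SIGLEC15 on chromosome 18, so several of these windows come from neighbouring, related genes and are not independent. Which start is used in 143B cells was not measured. The poorest window of each gene was then taken in place of the richest, a choice made after seeing the data. Of the 12 members above 1 FPKM 8 lay above 11, as did 1 of the 14 untested ones. Of the 10 tested members under 1 FPKM 5 did. The share over all genes was not computed for poorest windows. Of the 12, the 4 that dropped were ST3GAL6, NEU3, GNE and ST3GAL4, whose poorest windows held 0, 2, 4 and 6 pairs. Of the 14 untested members 12 have a single window.

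**Figure D1:**
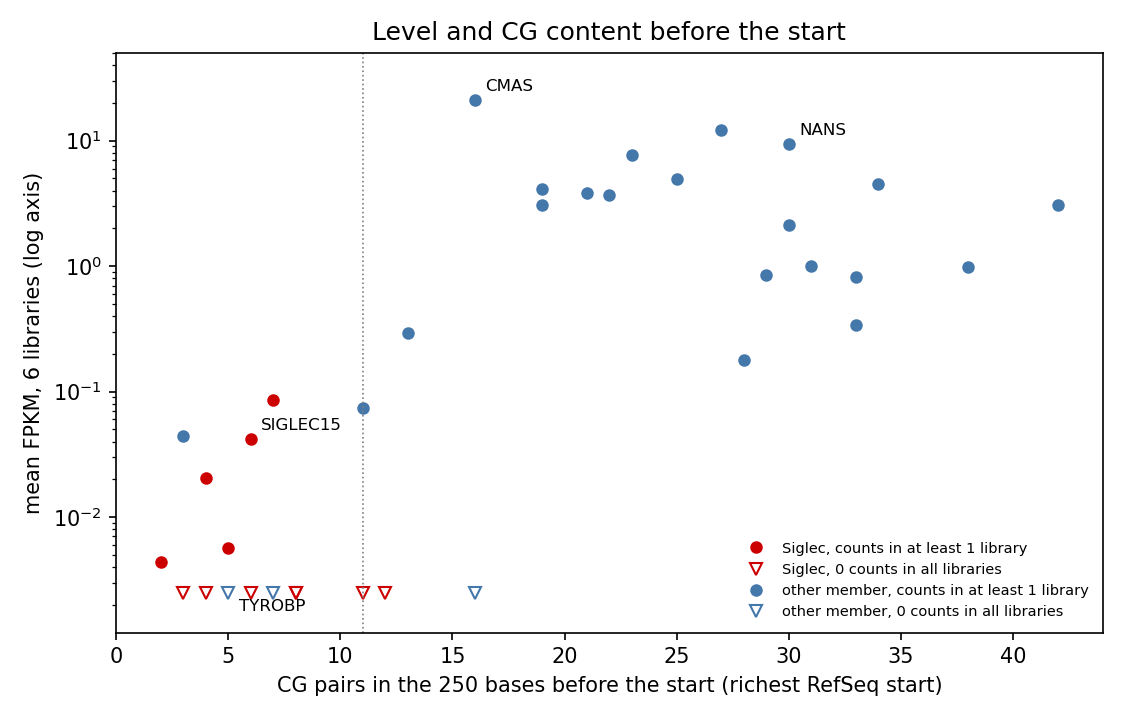
Mean FPKM over the 6 libraries (log axis) against the number of CG pairs in the 250 bases before the start, for the 36 members with a RefSeq window; Siglecs are red and other members blue, filled points had counts, open triangles had 0 counts in all libraries and are drawn at the bottom, and the dotted line is the median of all windows (11). Members above 1 FPKM lie at 16 pairs or more, and the Siglecs lie at 12 or fewer. Of the 10 tested members under 1 FPKM, 7 also lie above the dotted line.

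The enzymes that make sialic acid were the most abundant members per length. CMAS, which activates sialic acid to CMP-sialic acid, had the highest mean of all, 21.2 FPKM, above 90.2% of the tested genes. GNE, the bifunctional enzyme that opens the pathway, followed with 12.3 FPKM, then NANS, which condenses ManNAc-6-phosphate with phosphoenolpyruvate, with 9.45 FPKM, and NANP, which removes the phosphate, with 7.71 FPKM. In the control libraries these 4 levels did not overlap, and SLC35A1, the Golgi carrier of CMP-sialic acid, came next with 4.99 FPKM over all libraries. Below it the control ranges of neighbours overlapped from ST6GALNAC4 down to ST3GAL4, so their order is not resolved.

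**Figure D2:**
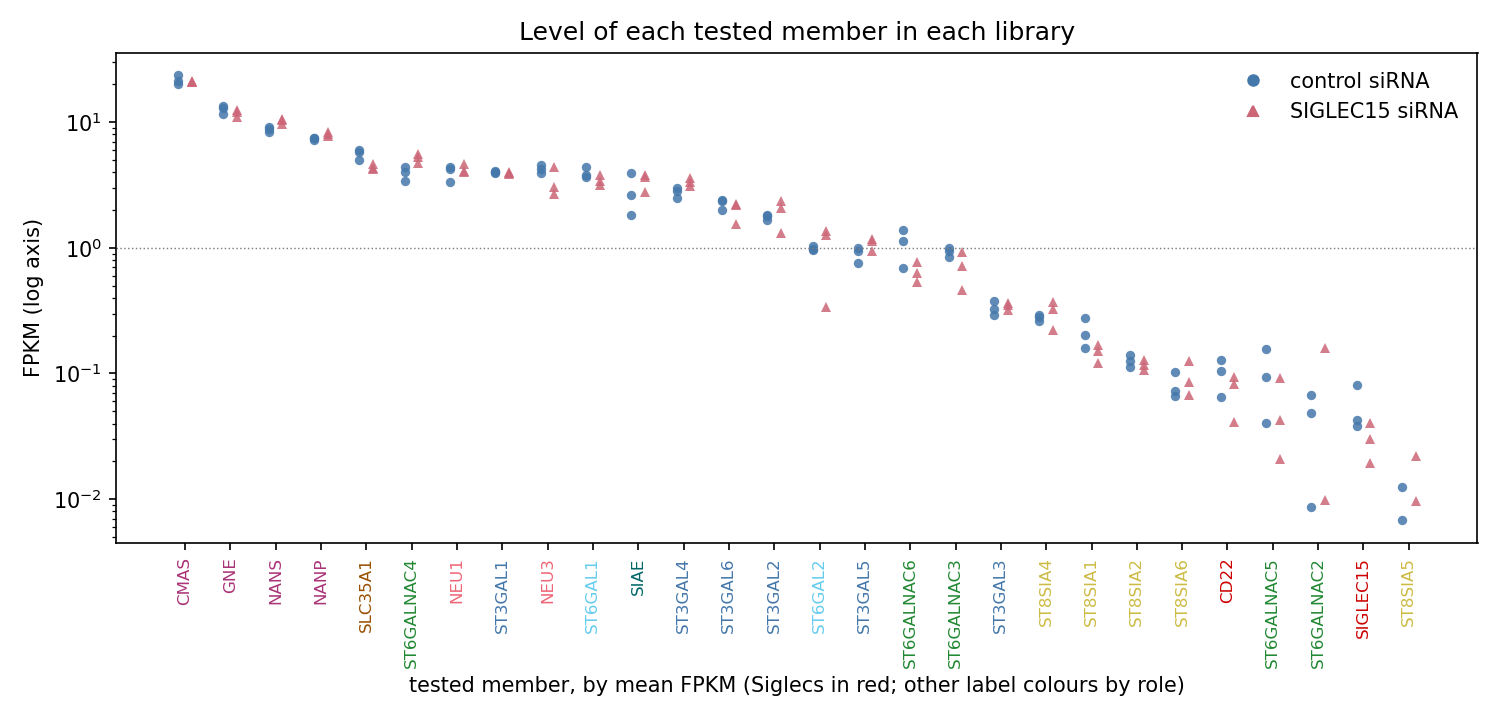
FPKM (log axis) of the 28 tested members in each of the 3 control (circles) and 3 SIGLEC15 siRNA (triangles) libraries, ordered by mean FPKM; libraries with 0 counts are not drawn, and the dotted line marks 1 FPKM. The synthesis enzymes stand at the left, 14 members average at least 1 FPKM, and SIGLEC15 is next to last.

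Between the groups no synthesis enzyme was called. CMAS had 49.2, 46.9 and 56.1 CPM in the control libraries and 50.1, 48.1 and 49 CPM in the SIGLEC15 siRNA libraries. The groups overlapped, and the fold was 0.968 with a 95% interval of 0.837 to 1.12. GNE had 94.3, 90.8 and 82.8 CPM against 78.4, 82.8 and 89.2 CPM, also overlapping, with a fold of 0.935 (0.818 to 1.07). These intervals are not adjusted for the number of genes. NANS had 48.5, 51.5 and 54.3 CPM in the control group and 62.5, 55.4 and 61.1 CPM in the SIGLEC15 siRNA group. Its groups did not overlap, but the 1.16-fold higher level (95% interval 1.01 to 1.33) missed the threshold with an edgeR adjusted p of 0.219. NANP likewise lay apart, at 32, 34 and 34.1 CPM against 35.6, 37.1 and 36.7 CPM, a fold of 1.09 (edgeR adjusted p = 0.433). SLC35A1 lay apart in the other direction, at 11.7, 14.1 and 13.9 CPM against 11.2, 10.1 and 10.2 CPM, a fold of 0.793 with a 95% interval of 0.65 to 0.967 (edgeR adjusted p = 0.192). The summed FPKM of the 4 synthesis enzymes was 50.3 ± 1.3 in the control group and 50.9 ± 0.755 with the SIGLEC15 siRNA (SD over 3 libraries each). Part of NANS overlaps TRIM14 on the opposite strand, a gene with 19982 counts over the 6 libraries against 20854 for NANS. In the shared part their reads cannot be told apart without strand.

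Sialyltransferases are named for the linkage they make and the sugar they act on, and 18 of the 19 were tested; ST6GALNAC1, which makes the sialyl-Tn antigen, had 8 counts in each of 2 libraries and was not. Enzymes of alpha2,3 linkages took the largest part of their summed FPKM, 50.8% in the control group and 51.7% in the SIGLEC15 siRNA group. The ST6GALNAC enzymes, which act on the GalNAc of O-glycans and glycolipids, took 25.5% and 27.3%, and the 2 ST6GAL enzymes, which cap N-glycans, 20.7% and 18.2%. Enzymes of alpha2,8 linkages, which build disialo- and polysialic chains, took 2.98% and 2.77%. For the ST6GAL enzymes the shares were 21.8%, 20.9% and 19.4% in the control libraries and 18.2%, 17.3% and 19.2% in the others, close but not overlapping. Their summed FPKM did overlap, at 5.36, 4.73 and 4.66 in the control libraries and 4.46, 4.11 and 4.75 in the others. The shares of the other linkages overlapped. All these shares weigh mRNA levels, not enzyme activity, and they were not tested.

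**Figure D3:**
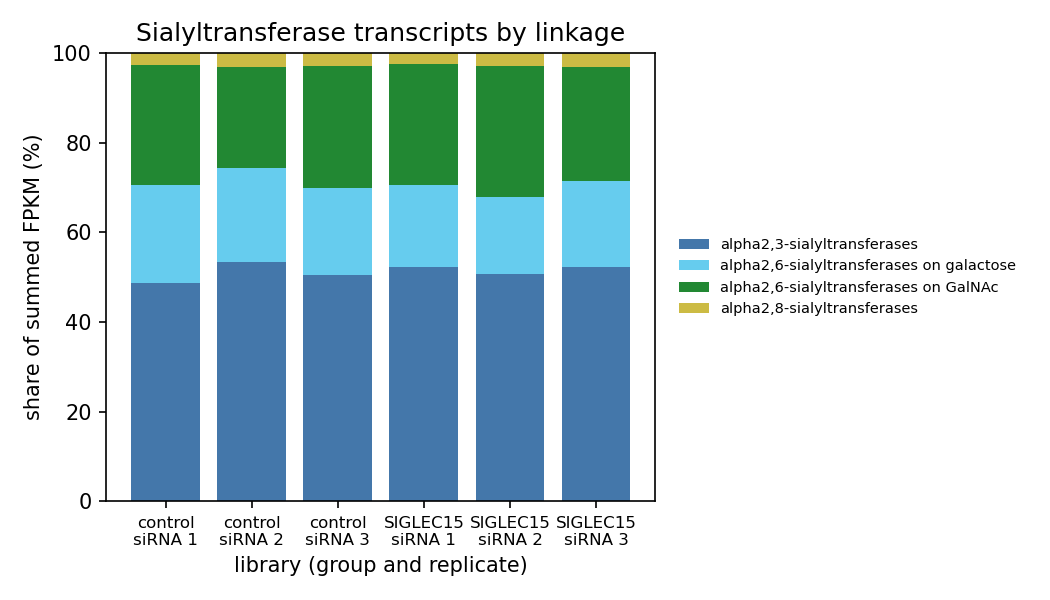
Share of the summed FPKM of the 19 sialyltransferases (vertical axis, percent) by linkage in each of the 6 libraries. Enzymes of alpha2,3 linkages hold between 48.6% and 53.3% in every library, and those of alpha2,8 linkages hold between 2.37% and 3.2%.

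Of the 6 alpha2,3-sialyltransferases none was called. ST3GAL1, which caps core 1 O-glycans, had the smallest SE of all tested members, 0.0711, with 41.3, 43.2 and 43 CPM in the control libraries and 41.7, 40.3 and 42.9 CPM in the SIGLEC15 siRNA libraries. The groups coincided, and its fold was 0.979 with a 95% interval of 0.87 to 1.1. ST3GAL4, which acts on N-glycans and helps to build selectin ligands, had 16, 13.2 and 15.2 CPM against 19.2, 16.3 and 18.1 CPM. The groups lay just apart, at a fold of 1.21 (0.994 to 1.47, edgeR adjusted p = 0.277). ST3GAL5, the GM3 synthase at the root of the gangliosides, had 19.4, 18.2 and 15.1 CPM against 22.5, 22.5 and 18.7 CPM, a fold of 1.21 with overlapping groups. ST3GAL2, which also acts on gangliosides, was even in the control libraries (19, 21 and 21 CPM) and uneven in the others (27.6, 14.9 and 24 CPM). ST3GAL6 and ST3GAL3 had folds of 0.881 and 1.03. ST3GAL6 overlaps DCBLD2 on the opposite strand, which had 160661 counts over the 6 libraries against 5943 for ST3GAL6.

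ST6GAL1, which makes the alpha2,6 cap of N-glycans that CD22 binds, had 47.2, 40.8 and 40 CPM in the control libraries and 35.1, 40.2 and 37.1 CPM in the SIGLEC15 siRNA libraries. The ranges overlapped slightly, and the fold was 0.878 (95% interval 0.745 to 1.03, edgeR adjusted p = 0.375). Its relative ST6GAL2 showed 1 library apart from the rest: 8.98, 8.89 and 9.56 CPM in the control group, then 11.9, 3.06 and 12.6 CPM. SIGLEC15 siRNA replicate 2 was thus the lowest library and the other 2 of its group were the highest. The log2 fold change was 0.01 over all libraries and 0.42 without that replicate (edgeR adjusted p = 0.996 and 0.187), and it was -0.29 when replicate 3 of the SIGLEC15 siRNA group was left out and -0.22 when replicate 1 was. The same library was the lowest for ST3GAL2, whose log2 fold change was 0.13 with it and 0.34 without it (edgeR adjusted p = 0.823 and 0.259).

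The ST6GALNAC enzymes went both ways. ST6GALNAC4, which adds the alpha2,6 sialic acid of disialyl core 1 O-glycans, had 13.6, 10.7 and 12.8 CPM in the control libraries and 17.6, 16.2 and 15.1 CPM in the SIGLEC15 siRNA libraries. The groups did not overlap, at a fold of 1.32 (95% interval 1.07 to 1.63), with the smallest p of all members, 0.0184, and an edgeR adjusted p of 0.154. ST6GALNAC6, which acts on gangliosides, had 7.14, 4.37 and 8.89 CPM against 4.12, 4.86 and 3.49 CPM. Only control replicate 2 reached into the range of the other group, and the fold was 0.611 (0.386 to 0.966, edgeR adjusted p = 0.229). A clone-named gene on the same strand spans it, with 1182 counts over the 6 libraries against 2036, so reads may be divided between them. ST6GALNAC3 had 8.43, 7.26 and 8.24 CPM against 4.07, 6.01 and 7.93 CPM, overlapping through SIGLEC15 siRNA replicate 3 (fold 0.753, edgeR adjusted p = 0.431). ST6GALNAC5 and ST6GALNAC2 were under 1.2 CPM in every library. ST6GALNAC2 had 36 of its 69 counts in SIGLEC15 siRNA replicate 2, and its log2 fold change was 0.40 with that library and -2.76 without it, neither past the threshold (edgeR adjusted p = 0.924 and 0.471). A clone-named gene on the same strand overlaps it, with 293 counts over the 6 libraries.

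All 5 alpha2,8-sialyltransferases averaged under 0.3 FPKM. ST8SIA4, a polysialyltransferase, was the highest, with 2.63, 2.44 and 2.76 CPM in the control libraries and 2.12, 3.01 and 3.47 CPM in the others, overlapping at a fold of 1.1. ST8SIA1, the GD3 synthase, had 3.49, 4.76 and 2.81 CPM against 2.68, 2.07 and 2.95 CPM, a fold of 0.697 (95% interval 0.463 to 1.05, edgeR adjusted p = 0.324). Its tail overlaps that of CMAS on the opposite strand. CMAS had 18678 counts and ST8SIA1 had 1166, and in the shared part their reads cannot be told apart without strand. ST8SIA2, the other polysialyltransferase, stayed between 0.747 and 1.01 CPM in all 6 libraries. ST8SIA6 lay between 0.559 and 1.04 CPM, and ST8SIA5 had no count in 2 libraries and at most 29 in the rest. NCAM1, the main carrier of polysialic acid and no member of the family, was present at 13.8 and 16.2 CPM in the 2 groups (edgeR adjusted p = 0.399).

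Of the sialidases, NEU1 of the lysosome and NEU3 of the plasma membrane were expressed, and NEU2 and NEU4 had 0 counts in all libraries. NEU1 had 19, 25 and 24.5 CPM in the control libraries and 27, 22.9 and 23.1 CPM in the SIGLEC15 siRNA libraries, overlapping at a fold of 1.07 (95% interval 0.849 to 1.34). NEU3 was even in the control group, at 38.6, 36.2 and 34.5 CPM, and split in the other, at 38.1, 25.7 and 23 CPM. SIGLEC15 siRNA replicate 1 sat among the control libraries and the other 2 sat below them. The log2 fold change of NEU3 was -0.33 (SE 0.191, edgeR adjusted p = 0.415) and -0.59 without that replicate (adjusted p = 0.0626). SIAE, the esterase that takes acetyl groups off sialic acid, had the widest spread of the well-expressed members, 25.2, 38.2 and 17.8 CPM against 35.9, 26.2 and 36.6 CPM. Its fold was 1.22 with a 95% interval of 0.765 to 1.94, and it overlaps SPA17 on the opposite strand, with 7540 counts against 11276. Without control replicate 2 its log2 fold change went from 0.28 to 0.61, and without control replicate 3 to 0.05 (edgeR adjusted p = 0.659, 0.272 and 0.943).

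Read together, 0 of 28 tested members were called by edgeR, 0 higher and 0 lower, where the shares over all tested genes were 2.22% and 2.43%. A count of 0 among so few genes is close to that background. In bulk RNA, fewer cells of a kind and less RNA per cell cannot be told apart. At an unadjusted p under 0.05 there were 4, ST6GALNAC4, SLC35A1, NANS and ST6GALNAC6, against 19.1% of all genes. For 5 members the control and SIGLEC15 siRNA libraries did not overlap (26.6% of all genes): ST3GAL4, ST6GALNAC4, NANS and NANP were higher (12.9% of all genes) and SLC35A1 lower (13.7%). The log2 fold changes were split evenly, 14 positive and 14 negative, with a median of -0.01, the same to 2 decimals as the median of all tested genes. Their median size was 0.244, against 0.215 over all tested genes. DESeq2 called 3 members, against 15.4% of all genes: ST6GALNAC4 (log2 fold change 0.40, DESeq2 adjusted p = 0.0177) and NANS (0.22, DESeq2 adjusted p = 0.0474) higher and ST6GALNAC6 (-0.71, DESeq2 adjusted p = 0.048) lower.

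How large a difference these data leave room for depends on the level. All 14 members with a mean of at least 1 FPKM had a 95% interval that stayed within 2-fold either way, and for 9 of them it stayed within 1.5-fold: ST3GAL1, ST3GAL4, ST3GAL6, ST6GAL1, NEU1, GNE, NANS, NANP and CMAS. Of the 14 tested members under 1 FPKM, 9 had intervals that reached past 2-fold, SIGLEC15 and CD22 among them. A missed threshold does not show that a gene did not differ. Among the sialyltransferases above 1 FPKM, the intervals of ST6GALNAC4 (1.07 to 1.63) and ST3GAL2 (0.76 to 1.57) reached past 1.5-fold.

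**Figure D4:**
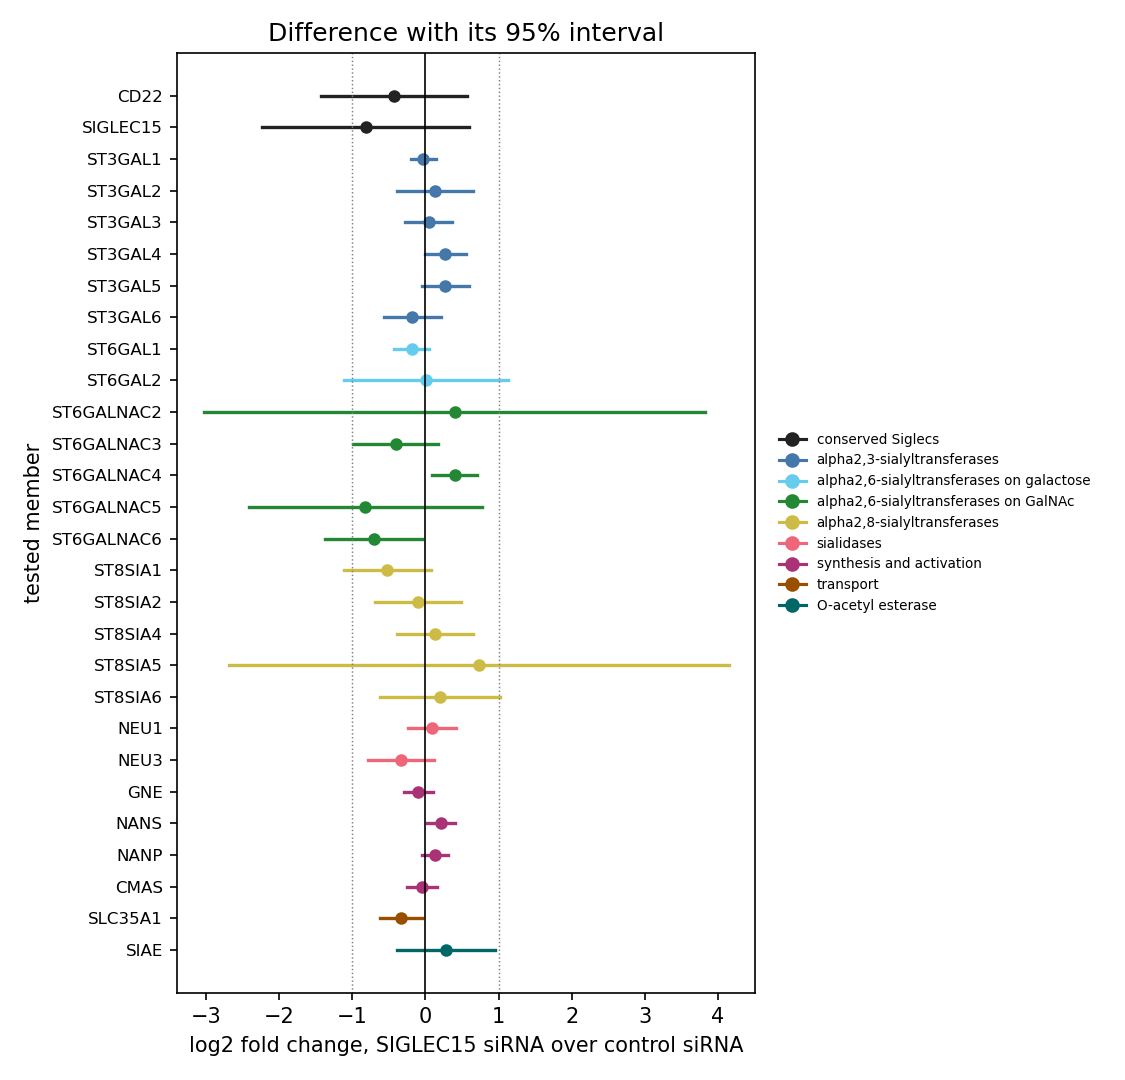
Log2 fold change of each tested member between the SIGLEC15 siRNA and control libraries (3 each), with its 95% interval as a bar and the role as colour; the dotted lines mark 2-fold either way. Intervals of the synthesis enzymes are narrow and near 0, while those of SIGLEC15, CD22 and several weakly expressed sialyltransferases pass the dotted lines.

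Around the members, 76 further genes that supply, carry, accept or recycle sialic acid were counted from lists. These lists were chosen with earlier results of these data known, so their counts cannot show that these genes differ more often than others. Of the 64 tested, 6 rose (2.22% of all genes) and 2 fell (2.43% of all genes), with a median log2 fold change of 0.09 against -0.01 over all tested genes. SLC35A2, the Golgi carrier of UDP-galactose, the donor of the galactose that sialic acid caps, was the called gene among 7 tested for ganglioside synthesis and had the largest fold of the 8, from 4.49, 2.83 and 3.14 CPM to 11.6, 10.2 and 10.1 CPM. The groups were far apart, at 3.04-fold (95% interval 2.19 to 4.24, edgeR adjusted p = 0.0101). GALNT2, which starts mucin-type O-glycans, rose 1.52-fold from 150.1 ± 5.26 to 227.8 ± 12.3 CPM (SD, n = 3 each, edgeR adjusted p = 0.00662). Of the 11 O-glycan genes tested it alone was called. The groups did not overlap for 5 genes higher, GALNT2 included, and 1 lower (12.9% and 13.7% of all genes).

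In the hexosamine supply, the source of UDP-GlcNAc, 1 of 8 tested genes was called higher and 1 lower. The groups did not overlap for 2 genes higher and 3 lower (12.9% and 13.7% of all genes). GFPT2, an isoform of the rate-limiting amidotransferase, rose 1.42-fold from 191.5 ± 6.8 to 272.6 ± 18.5 CPM (SD, n = 3 each, edgeR adjusted p = 0.0134). The other isoform, GFPT1, lay apart at a fold of 1.59 (95% interval 1.22 to 2.07) but was not called (edgeR adjusted p = 0.0703). UAP1 and NAGK lay apart at folds of 0.848 and 0.739, also not called. GNPNAT1, which acetylates glucosamine-6-phosphate, fell 1.26-fold from 173.5 ± 5.8 to 137.7 ± 4.12 CPM (SD, n = 3 each, edgeR adjusted p = 0.0289). Of 14 N-glycan genes MAN2A1, a Golgi mannosidase, rose 1.43-fold (edgeR adjusted p = 0.0244) and B4GALT1, which adds galactose, fell 1.29-fold (edgeR adjusted p = 0.0249). Of 8 genes of lysosomal release and recycling GLB1, the lysosomal beta-galactosidase, rose 1.22-fold (edgeR adjusted p = 0.047), while SLC17A5, which exports free sialic acid, stood at 19.3 and 21.8 CPM (edgeR adjusted p = 0.463). LGALS3BP, a sialylated secreted glycoprotein, rose 1.89-fold from 13.7 ± 1.27 to 25.9 ± 3.81 CPM (SD, n = 3 each, edgeR adjusted p = 0.0192) and was the called gene among 7 tested carriers. None of the 8 tested signalling genes behind Siglecs was called by edgeR (4.65% of all tested genes). At an unadjusted edgeR p under 0.05 there were 2, against 19.1% of all tested genes. Of the 13 alternative settings, SLC35A2 and GALNT2 lost their calls in 1 each, the replicate block, GFPT2, MAN2A1 and LGALS3BP in 6, GNPNAT1 and B4GALT1 in 7 and GLB1 in 8.

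**Figure D5:**
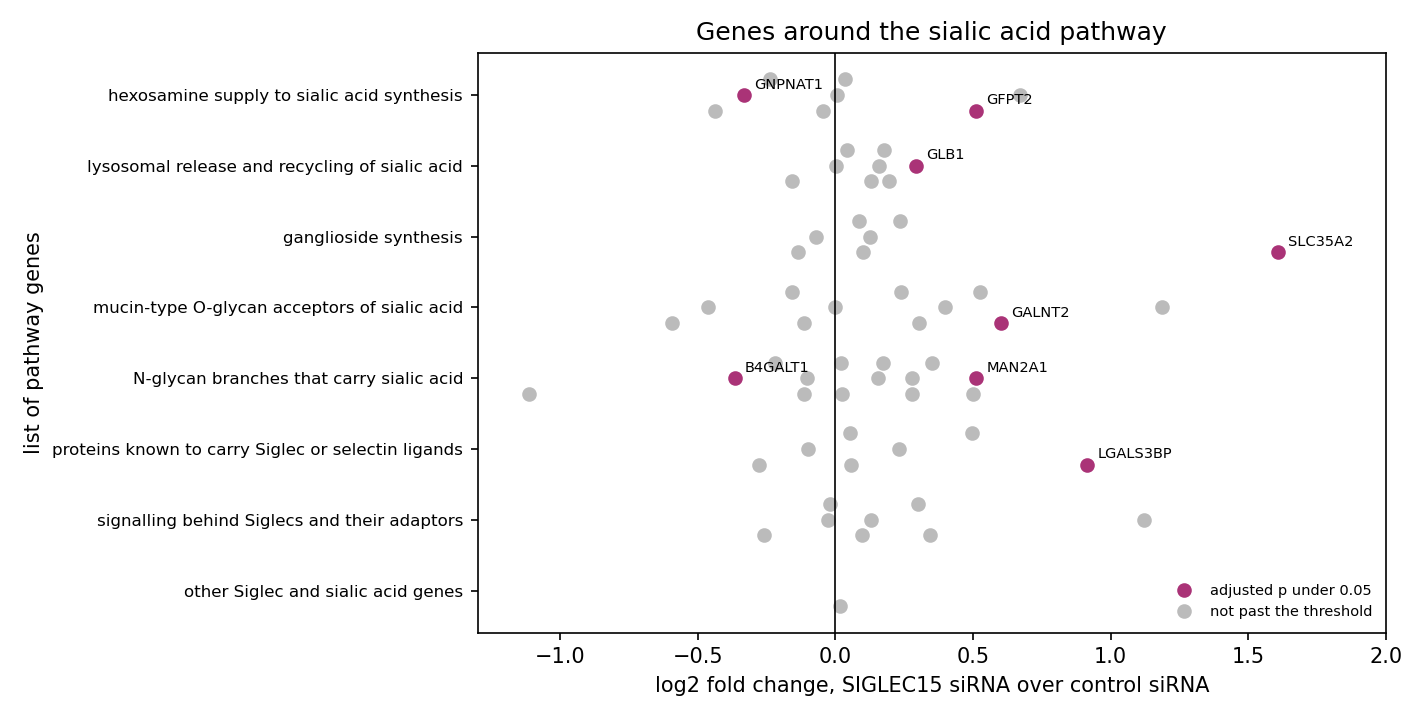
Log2 fold change between the SIGLEC15 siRNA and control libraries (3 each) of the 64 tested genes around the sialic acid pathway, by list; purple points passed an edgeR adjusted p of 0.05 and are named, grey points did not. SLC35A2 lies farthest to the right at 1.61, and 8 points are purple.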

How the data were processed

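Per the labels' protocols, poly(A) RNA was read paired-end on an Illumina NovaSeq. The authors deposited whole-number counts per gene for each library. They also deposited FPKM, per the file headers. HISAT, StringTie and edgeR appear, without versions, in the submitters' processing notes. No source used here gives the genome build, strand use or counting step. Genes at 0 counts are listed at a small FPKM floor, read here as 0 in sums. Every value column was tied to a sample (0 left over).

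Counts were tested over all genes with edgeR 4.0.16 in R 4.3.3. The filterByExpr filter asked for a rate matching about 10 counts in at least 3 libraries, and for at least 15 counts in total. After TMM scaling the 2 groups were compared by quasi-likelihood F test without covariates, with Benjamini-Hochberg adjustment over all tested genes. CPM are counts scaled by the TMM-adjusted library totals. SE was taken as log2 fold change over root F, and 95% intervals use the fit's t distribution. Levels of different genes were compared in FPKM. The fit was tested on simulated data. CG pairs were counted in RefSeq windows.

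Members, lists and the naming rule were chosen with earlier results of these data known. Named are all members, with values per library for SIGLEC15, called members and the highest of each role, extended to further members after values were seen, and up to 4 called genes with the smallest p of each other list. SYK, TRIM14, NCAM1, SLC17A5 and other uncalled or overlapping genes were named after values were seen. A listed leukocyte marker is not reported here. Alternatives were the DESeq2 1.42.0 Wald test, median-of-ratios size factors, no filter, a mean FPKM of at least 1, limma-trend (limma 3.58.1) on log2(FPKM + 1) and log2(FPKM + 0.1), the replicate number as a block, and each of the 6 libraries left out.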

Additional observations from a re-analysis of the deposited data

How the results depend on the processing

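No member passed the threshold under edgeR or limma-trend in any alternative run, and DESeq2 called 2 higher and 1 lower; the cause was not tested. SIGLEC15 kept its direction and missed the threshold in all 10 alternatives that test it, with log2 fold changes between -1.09 and -0.42; DESeq2 gave it no adjusted p, and the settings limited to a mean FPKM of at least 1 leave it out. Against 879 genes changed in all, DESeq2 gave 2916 and leaving out each library in turn gave 260 to 431, with 1 library fewer in the fit. Against 6 higher and 2 lower genes around the pathway, DESeq2 gave 14 and 6, and leaving out each library gave 2 to 4 and 0 to 0. The fit with a replicate block called 50 genes in all, and 0 genes around the pathway were higher and 0 lower; SIGLEC15 had a log2 fold change of -0.78. The replicate numbers showed no sign of pairing the libraries: deviations of those sharing a number correlated at -0.0712, 0.00662 and -0.117, and 1 of 6 libraries was closest to its own number. With so few libraries these values cannot show that no pairing exists. The Siglecs and adaptors had 0 to 59 counts each in a library.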
